A study of Mus musculus with 30 samples.

Results

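The Hippo pathway genes described here are Yap1, Wwtr1, Tead1, Tead2, Amot, Amotl2, Lats1, Lats2, Nf2 and Cyr61, taken by symbol from a table of 49585 rows. All 10 had a row of their own, and all 10 exceeded the mean of 1 FPKM that a gene needed to be tested, as did 12120 genes in all. RNA was sequenced from mouse embryos of the strain label BDF1 x BDF1, cultured in KSOM medium to the 8-cell stage. In 2 libraries Yy1, which encodes the DNA-binding zinc finger protein YY1, had been knocked down with the siRNA that the labels number 1, and in 2 libraries embryos had received a control knockdown. A second siRNA against Yy1 has no RNA library among the samples used here, so each difference rests on 1 siRNA. The labels do not state how the siRNAs were delivered or how many embryos went into a library. The other 26 of the 30 samples of the series were not analysed here.

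In the Hippo pathway, the kinases LATS1 and LATS2 phosphorylate the coactivators YAP and TAZ, encoded by Yap1 and Wwtr1, which keeps them out of the nucleus. When the kinases are inactive, YAP and TAZ bind TEAD factors on DNA and raise genes such as Cyr61. In the mouse embryo the pathway separates outer from inner cells: outer, polarised cells keep YAP in the nucleus with TEAD4 and become trophectoderm, while in inner cells angiomotin at the junctions, with merlin (the product of Nf2), activates the LATS kinases. These are steps of protein activity and position in the cell, which RNA levels do not measure.

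The promoters of the genes that RefSeq lists were read for the TEAD motif GGAATG and for the YY1 motif AANATGGC, on both strands, in windows of 300 bases from 250 before to 50 after the start site (GRCm38.p6). RefSeq windows were found for 9 of the 10 genes, 12 windows in all; Tead1 had no entry. The TEAD motif was present at 5 genes, Cyr61, Amotl2, Wwtr1, Yap1 and Lats2, and in 14.7% of all 32851 windows of this length. For both motifs the Hippo genes are counted by gene and the background by window, so the units differ. Counted from the start site, the TEAD match began at base -103 at Cyr61, -65 at Amotl2 and -141 at Yap1, and at base 5 of the transcript at Lats2. The only windows of Amot and Amotl2 lie inside the annotated spans of these genes, so the upstream ends of those spans were not read. Wwtr1 has 2 overlapping windows that hold the same match, at -170 and -136 from their start sites. To show the motif in its setting at each gene, these stretches have the motif in capitals with 12 bases on either side, each on the strand that reads GGAATG, at chr3:145650071-145650100 plus strand, chr9:102717727-102717756 minus strand, chr3:57576029-57576058 minus strand, chr9:8004720-8004749 minus strand and chr14:57746102-57746131 minus strand:
Cyr61: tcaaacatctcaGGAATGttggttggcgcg
Amotl2: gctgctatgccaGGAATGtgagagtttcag
Wwtr1: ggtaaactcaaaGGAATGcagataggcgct
Yap1: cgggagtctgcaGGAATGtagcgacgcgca
Lats2: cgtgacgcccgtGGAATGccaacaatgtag

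The YY1 motif was present at 1 gene, Lats1, where it starts at base 18 of the transcript, and in 6.05% of all windows. The 3 windows shown are those of the gene with the largest log2 fold change among the 10 (Cyr61, listed as Ccn1 by RefSeq, chr3:145649936-145650235, minus strand), of a Hippo inhibitor that is also a YAP target (Amotl2, chr9:102717554-102717853, plus strand) and of the gene with the YY1 motif (Lats1, chr10:7680959-7681258, plus strand). Capitals mark the TEAD motif in Cyr61 and Amotl2 and the YY1 motif in Lats1:
Cyr61: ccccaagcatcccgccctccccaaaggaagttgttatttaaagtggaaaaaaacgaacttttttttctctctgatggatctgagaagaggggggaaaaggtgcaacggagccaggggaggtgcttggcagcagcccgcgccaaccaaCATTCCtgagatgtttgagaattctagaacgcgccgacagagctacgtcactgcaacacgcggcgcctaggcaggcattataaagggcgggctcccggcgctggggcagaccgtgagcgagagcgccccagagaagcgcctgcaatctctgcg
Amotl2: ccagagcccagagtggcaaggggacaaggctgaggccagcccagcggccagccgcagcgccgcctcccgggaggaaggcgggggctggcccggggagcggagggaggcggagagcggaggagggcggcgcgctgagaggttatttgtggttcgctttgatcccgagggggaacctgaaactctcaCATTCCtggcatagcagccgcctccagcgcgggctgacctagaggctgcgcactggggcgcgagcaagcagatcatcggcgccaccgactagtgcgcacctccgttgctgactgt
Lats1: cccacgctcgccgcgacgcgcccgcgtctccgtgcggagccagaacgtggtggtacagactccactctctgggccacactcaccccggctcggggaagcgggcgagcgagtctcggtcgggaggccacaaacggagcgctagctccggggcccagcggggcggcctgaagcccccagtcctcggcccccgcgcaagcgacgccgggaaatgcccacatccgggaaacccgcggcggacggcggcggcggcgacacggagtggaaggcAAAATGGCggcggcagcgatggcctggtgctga
A match of letters is a description of the window and not evidence that a factor was bound there.

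**Figure D1:**
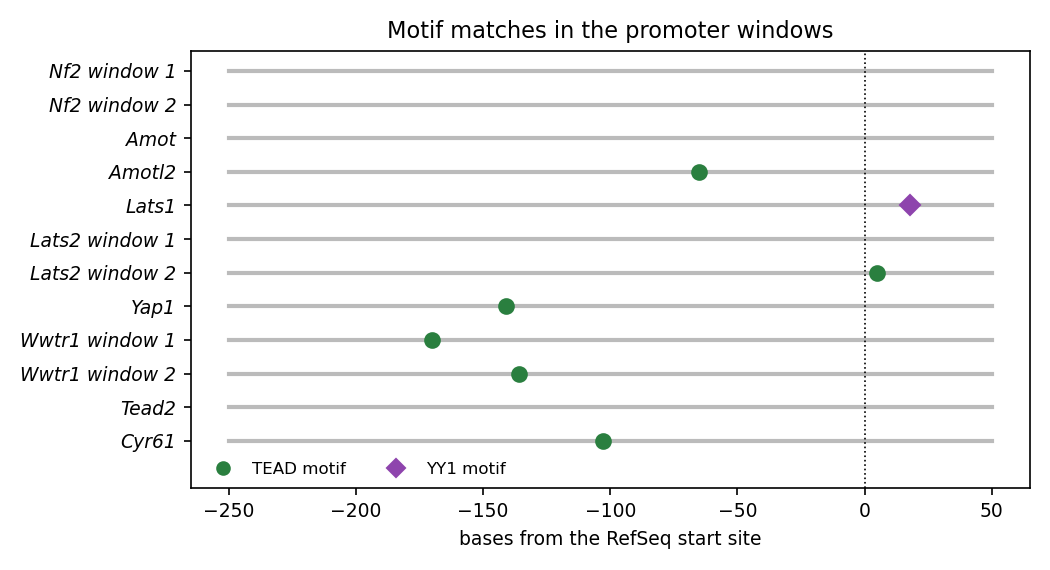
Matches of the TEAD motif (circles) and the YY1 motif (diamond) in the 12 RefSeq promoter windows, by distance in bases from the start site (dotted line). TEAD motifs stand in windows of 5 genes and the YY1 motif in that of Lats1.

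Each library had 29302489 to 34429515 fragments, recovered from the steps between FPKM values (fragments divided by gene length and by the fragment total of each library). Behind the 10 genes stood 115 to 8210 fragments per gene and library, and intervals from these counts cover counting error only. They were widest relative to the level for Tead2 in Yy1 knockdown replicate 2, at 0.677 to 0.984 FPKM, and reached 2.06 to 2.84 FPKM for Cyr61 in control replicate 2. Yy1, the targeted gene, had 5.89 and 7.98 FPKM after Yy1 knockdown, against 77.7 and 71.2 FPKM after control knockdown, 10.7-fold lower by means (limma adjusted p = 0.0556). Of 9 markers of preimplantation embryos 8 exceeded the filter, among them Pou5f1 at 178 to 214 FPKM over the 4 libraries, while Sox2 was at or below 0.186 FPKM. The 8 were not level between groups: by log2 fold change 7 were lower after Yy1 knockdown and 1 was higher. In 4 of the 8 both knockdown libraries were below both controls, and in 0 both were above. Zfp42 differed most, at 5.43 and 3.99 FPKM in Yy1 knockdown and 30.7 and 30.2 FPKM in control libraries. Its log2 fold change was -2.47 (limma adjusted p = 0.0928). Of 21 markers of cumulus cells, sperm and blood 2 exceeded it, Amhr2 and Odf2. The summed level of the cumulus markers, nearly all Amhr2, was 7.99 and 7.74 FPKM in Yy1 knockdown and 5.44 and 4.92 FPKM in control libraries. Fshr, Has2 and Ptx3 were listed at 0 in all 4 libraries, and the part of such cells in the results below was not tested.

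No Hippo gene passed the test, which was limma on log2(FPKM + 1) with Benjamini-Hochberg adjustment over all 12120 genes and a threshold of 0.05. The adjusted p of the 10 ran from 0.502 to 0.884. The comparison called 0% of all tested genes, not even the targeted Yy1 (limma adjusted p = 0.0556). Not passing therefore says little about the Hippo genes. An unadjusted limma p under 0.05 was found for 1079 of all tested genes, which is 8.9%. Cyr61 and Amotl2 were the 2 Hippo genes among them. In 5 of the 10 genes both Yy1 knockdown libraries stood above both controls, namely Cyr61, Amotl2, Amot, Wwtr1 and Lats2, where 21.8% of all tested genes did so. In 2 of the 10, Lats1 and Yap1, both stood below, where 18.9% of all tested genes did. With 2 libraries in a group the smallest 2-sided p of an exact permutation test of a single gene is 0.333, so such separation alone could not reach the threshold. The labels do not say whether the replicates come from separate collections of embryos, and p-values measure only the spread between these libraries. In RNA of whole embryos a lower level cannot be told apart from fewer cells that hold the transcript.

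**Figure D2:**
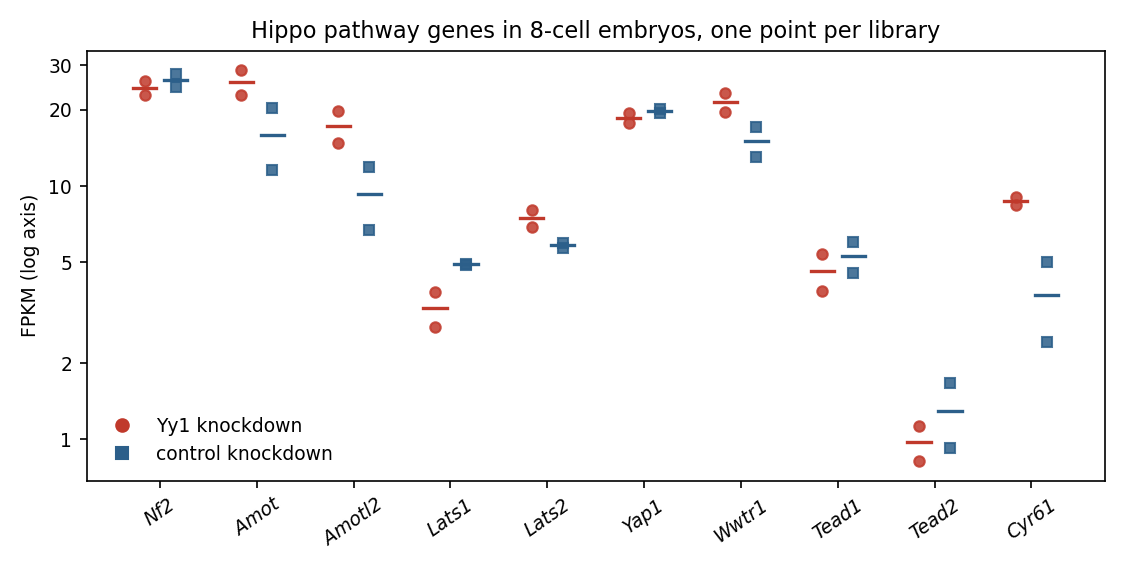
FPKM of the 10 genes on a log axis, with Yy1 knockdown libraries (circles) left of control libraries (squares), 2 of each, and bars at group means. The groups are apart for Amot, Amotl2, Lats1, Lats2, Wwtr1 and Cyr61, touch for Yap1 and overlap for Nf2, Tead1 and Tead2.

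Nf2, on chromosome 11 from 4757639 to 4849544 in mm10 (as all positions below, from RefSeq GRCm38.p6), encodes merlin, a membrane-linked scaffold that recruits the LATS kinases. It had the highest mean of the 10 genes, 25.3 FPKM over the 4 libraries. Its level was 26.0 and 22.9 FPKM in Yy1 knockdown libraries and 24.6 and 27.8 FPKM in control libraries. The groups overlapped, and the log2 fold change was -0.09 with a 95% interval from -0.49 to 0.30 (limma adjusted p = 0.884).

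Amot, on chromosome X from 145446424 to 145505966, encodes angiomotin, which holds YAP at junctions and helps activate the LATS kinases in inner cells. It had 28.7 and 22.9 FPKM in Yy1 knockdown libraries and 11.6 and 20.4 FPKM in control libraries. Both knockdown libraries were above both controls, though the nearest pair, 22.9 and 20.4 FPKM, was closer than the controls were to each other. The means were 25.8 ± 4.05 FPKM after Yy1 knockdown and 16 ± 6.21 FPKM after control knockdown (SD, n = 2 each), a ratio of 1.61. The log2 fold change was 0.70 ± 0.29 (standard error; limma adjusted p = 0.566). It was 0.32 without control replicate 1 and 1.08 without control replicate 2.

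Amotl2, on chromosome 9 from 102717091 to 102733418, encodes a relative of angiomotin with a like role, and is itself a target of YAP in cultured cells. It stood at 14.7 and 19.8 FPKM in Yy1 knockdown libraries and at 11.9 and 6.70 FPKM in control libraries. No library of one group fell within the range of the other. The means were 17.2 ± 3.55 and 9.29 ± 3.66 FPKM for Yy1 knockdown and control (SD, n = 2 each), a ratio of 1.86. The log2 fold change of 0.86 had a 95% interval of 0.12 to 1.6 before adjustment and a limma adjusted p of 0.532. Without control replicate 1 it was 1.23 and without control replicate 2 it was 0.49.

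Both angiomotin genes were therefore higher by mean, and their sum was steadier than either. With the third relative, Amotl1, which was below the filter, the angiomotins summed to 44.1 and 43.5 FPKM in Yy1 knockdown libraries, against 24.2 and 27.8 FPKM in control libraries, a ratio of means of 1.68. Within that sum the makeup differed between replicates more than between groups. Amot held 65.1 and 52.8% of it in Yy1 knockdown libraries and 47.9 and 73.3% in control libraries, and Amotl2 held 33.4 and 45.5% against 49.0 and 24.1%. FPKM are scaled to gene length, which is why levels of different genes can be added and compared here.

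Lats1, on chromosome 10 from 7681200 to 7716461, encodes the first of the kinases that phosphorylate YAP and TAZ. It had 3.82 and 2.79 FPKM in Yy1 knockdown libraries and 4.95 and 4.89 FPKM in control libraries. The controls lay close together and both knockdown libraries below them, with means of 3.31 ± 0.727 FPKM after Yy1 knockdown and 4.92 ± 0.0426 FPKM after control knockdown (SD, n = 2 each). The log2 fold change was -0.47 ± 0.22 (standard error; limma adjusted p = 0.604), and -0.30 without Yy1 knockdown replicate 2. The start of Lats1, with the YY1 motif shown above, lies within the annotated span of Pcmt1, which had 9.42 and 9.83 FPKM in Yy1 knockdown and 10.2 and 12.1 FPKM in control libraries. No source used here says whether fragments of that stretch were counted by strand.

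Lats2, on chromosome 14 from 57689662 to 57746212, encodes the second kinase and is also a target of YAP in cultured cells. Here the order of the groups was the opposite one. It had 6.90 and 8.03 FPKM in Yy1 knockdown libraries and 5.71 and 5.99 FPKM in control libraries, a ratio of means of 1.28 and a log2 fold change of 0.30 (standard error 0.18, limma adjusted p = 0.672). Lats2 was above Lats1 in all 4 libraries. The kinases summed to 10.7 and 10.8 FPKM in Yy1 knockdown libraries and to 10.7 and 10.9 FPKM in control libraries, so the sum was the same within the spread of replicates. Of this sum Lats2 held 64.4 and 74.2% in Yy1 knockdown libraries and 53.6 and 55.1% in control libraries, with no overlap between groups. That follows from the opposite orders of Lats1 and Lats2 given above and is not a further result. Of all tested genes, 40.7% did not overlap between groups in one direction or the other.

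**Figure D3:**
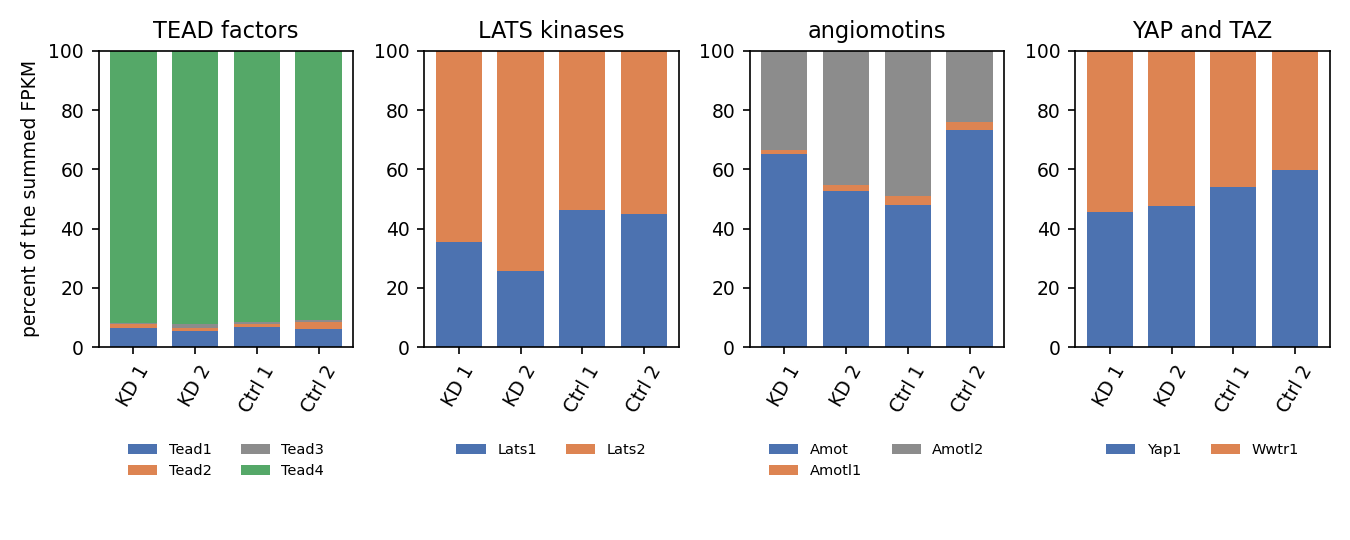
Share of each gene in the summed FPKM of its family, in percent, for Yy1 knockdown (KD) and control (Ctrl) libraries, replicates 1 and 2. Tead4 holds 90.8 to 92.1% of the TEAD sum in every library, and Lats2 a larger share of the LATS sum in both knockdown libraries.

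Yap1, on chromosome 9 from 7931999 to 8004638, encodes the coactivator YAP. Its level was 19.5 and 17.7 FPKM in Yy1 knockdown libraries and 20.1 and 19.5 FPKM in control libraries. The nearest libraries of the groups stood at a ratio of 0.999, a gap smaller than the counting error of either. The log2 fold change of -0.09 had a 95% interval from -0.46 to 0.29 (limma adjusted p = 0.884).

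Wwtr1, on chromosome 3 from 57455644 to 57575910, encodes TAZ, the close relative of YAP. It had 23.3 and 19.6 FPKM in Yy1 knockdown libraries and 17.1 and 13.1 FPKM in control libraries. Both knockdown libraries were higher than both controls, at 21.4 ± 2.6 against 15.1 ± 2.85 FPKM (SD, n = 2 each), a ratio of 1.42. The log2 fold change was 0.49 ± 0.20 (standard error; limma adjusted p = 0.561), and 0.31 without control replicate 2. Of the 2 coactivator transcripts, Wwtr1 thus held 54.4 and 52.5% of the sum in Yy1 knockdown libraries and 45.9 and 40.1% in control libraries: it was the more abundant of the pair in both knockdown libraries and the less abundant in both controls. These shares follow from the levels of Wwtr1 and Yap1 given above and are not a further result.

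Tead1 and Tead2 encode DNA-binding partners of YAP and TAZ. Tead1, on chromosome 7 from 112679356 to 112906784, had 5.42 and 3.86 FPKM in Yy1 knockdown libraries and 6.03 and 4.55 FPKM in control libraries. Tead2, on chromosome 7 from 45215792 to 45233468, had 1.13 and 0.82 FPKM in Yy1 knockdown libraries and 0.928 and 1.66 FPKM in control libraries. Both genes overlapped between groups, with log2 fold changes of -0.16 and -0.20 and limma adjusted p values of 0.868 each. With 115 to 250 fragments, Tead2 was the lowest of the 10 genes.

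The TEAD transcript that dominated these embryos was Tead4, which encodes the factor needed for trophectoderm. It had 78.1 and 65.9 FPKM in Yy1 knockdown libraries and 80.2 and 67.9 FPKM in control libraries, above every one of the 10 genes in every library. Its log2 fold change was -0.04 with a 95% interval from -0.44 to 0.36 (limma adjusted p = 0.956). Tead4 made up 91.7 and 92.1% of the summed FPKM of the 4 TEAD genes in Yy1 knockdown libraries and 91.4 and 90.8% in control libraries. Tead3 was below the filter, with means of 0.725 and 0.599 FPKM in Yy1 knockdown and control libraries.

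Cyr61, on chromosome 3 from 145646971 to 145649985, encodes a secreted matrix protein and is a widely used readout of YAP and TEAD activity in cultured cells. It had 8.46 and 9.03 FPKM in Yy1 knockdown libraries and 5.01 and 2.43 FPKM in control libraries, from 582, 534, 348 and 154 fragments. The knockdown libraries were close to each other and above both controls, which differed 2.06-fold between themselves. Means were 8.74 ± 0.4 FPKM after Yy1 knockdown and 3.72 ± 1.82 FPKM after control knockdown (SD, n = 2 each), the largest ratio among the 10 genes at 2.35. The log2 fold change was 1.10 with a 95% interval from 0.35 to 1.86 before adjustment, at the 97.7th percentile of absolute log2 fold changes among all tested genes, and it did not pass (limma adjusted p = 0.502). It was 0.70 without control replicate 2 and 1.51 without control replicate 1. Leaving aside predicted and clone names, the profiles over the 4 libraries most like it were those of Rhox6, Thap1 and Teddm1b, with root mean square differences of 0.0401, 0.0853 and 0.149 in centred log2(FPKM + 1). Within a difference of 0.1 lay 4 of the 12120 tested genes, 2 of them Rhox6 and Thap1 and 2 with predicted or clone names. Rhox6 was low, at 2.56 and 2.53 FPKM in Yy1 knockdown libraries and 1.24 and 0.221 FPKM in control libraries. Low genes change less on this scale than in FPKM, so its likeness to Cyr61 is not one of FPKM ratios.

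**Figure D4:**
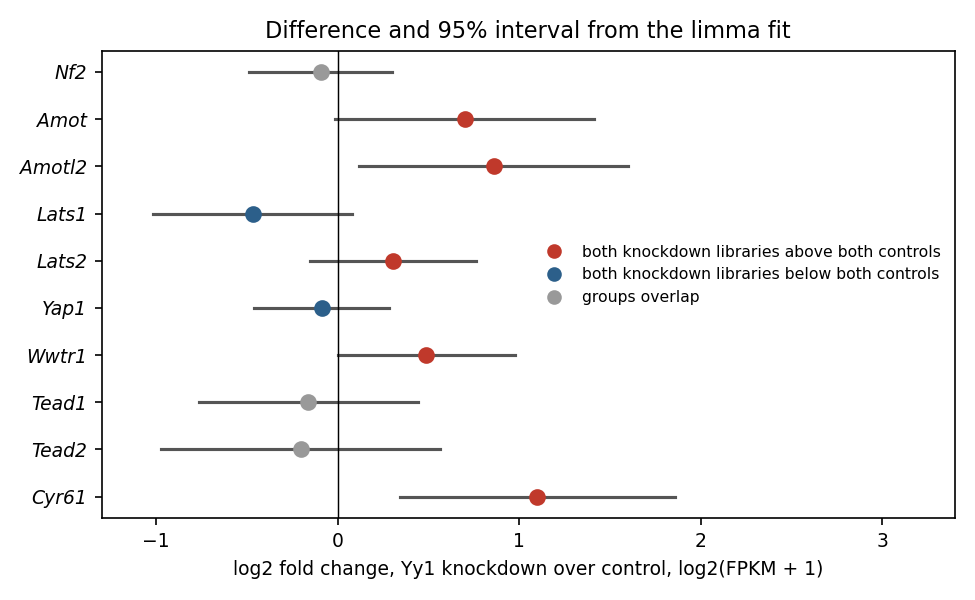
Log2 fold change of Yy1 knockdown over control on the log2(FPKM + 1) scale for the 10 genes, with unadjusted 95% intervals from limma. Points for Cyr61 and Amotl2 have intervals above 0, from 0.35 and 0.12 up, and no gene passed adjustment over all tested genes.

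Ordered by mean over the 4 libraries, Nf2 at 25.3 FPKM was followed by Amot at 20.9, Yap1 at 19.2, Wwtr1 at 18.3, Amotl2 at 13.3, Lats2 at 6.66, Cyr61 at 6.23, Tead1 at 4.97, Lats1 at 4.11 and Tead2 at 1.13 FPKM. Of the neighbours in this order, only Lats1 and Tead2 had ranges over libraries that did not overlap. Amot and Wwtr1 were both above Yap1 in both Yy1 knockdown libraries, while in the controls Wwtr1 was below Yap1 in both and Amot in replicate 1.

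Other genes of the pathway were taken from 6 lists written with earlier results of these data known, and none of their tested members was called. Among the Hippo kinases and scaffolds, 15 of 18 were tested, 5 higher and 10 lower by log2 fold change, with a median of -0.10 against 0.02 over all tested genes. The kinase genes upstream of LATS, Stk3 and Stk4, had means of 4.5 and 24.2 FPKM in Yy1 knockdown and 4.91 and 27.1 FPKM in control libraries, and both overlapped between groups. Taok2, which encodes a kinase that activates the Hippo kinases, had 3.91 and 4.02 FPKM in Yy1 knockdown libraries and 6.70 and 8.89 FPKM in control libraries (log2 fold change -0.81, limma adjusted p = 0.500). Its relative Taok1 had means of 53.8 and 68.8 FPKM in Yy1 knockdown and control libraries, and Stk38, of the LATS-related NDR kinases, 9.32 and 12.5 FPKM. In these 3 and in Stk38l both knockdown libraries were below both controls, which makes 4 of the 15 tested (26.7%, against 18.9% of all tested genes). In 1 of the 15, Map4k1, both were above (6.67%, against 21.8% of all tested genes). Map4k1, a kinase gene of the same layer, had means of 4.19 and 2.96 FPKM in Yy1 knockdown and control libraries.

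Of the upstream and junctional regulators 20 of 31 were tested, 10 higher and 10 lower, with a median of -0.03. The smallest p values in the list were those of members of the STRIPAK phosphatase complex, which opposes the Hippo kinases. Ppp2ca, encoding the catalytic subunit of the phosphatase PP2A, had 14.6 and 15.0 FPKM in Yy1 knockdown libraries and 26.2 and 25.8 FPKM in control libraries (log2 fold change -0.77, limma adjusted p = 0.454). Slmap, encoding the adaptor that links this complex to the Hippo kinases, had 12.4 and 16.2 FPKM in Yy1 knockdown and 25.0 and 25.6 FPKM in control libraries (-0.79, limma adjusted p = 0.462). The list holds 5 genes of the complex, and of the others Mob4 had means of 4.23 and 5.81 FPKM and Strn3 50.6 and 57.8 FPKM in Yy1 knockdown and control libraries. Ppp2r1a, the scaffold subunit of PP2A, lay the other way at 13.4 and 11.2 FPKM. Csnk1d, a casein kinase gene, had 12.1 and 8.5 FPKM, and Ajuba, which encodes a LIM protein that binds LATS kinases, 4.96 and 3.11 FPKM in Yy1 knockdown and control libraries.

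Among YAP and TEAD targets known from cultured cells, 7 of 24 were tested, 6 higher and 1 lower, with a median log2 fold change of 0.25. In 1 of the 7, Ajuba, the libraries did not overlap and were higher, 14.3% of the list where 21.8% of all tested genes were so. Ctgf, the relative of Cyr61 and the other common readout of YAP, had 2.35 and 4.44 FPKM in Yy1 knockdown libraries and 2.55 and 1.91 FPKM in control libraries. Its groups overlapped (log2 fold change 0.41, limma adjusted p = 0.722), so it did not separate the groups as Cyr61 did. Igfbp3 had means of 1.59 and 1.11 FPKM and Gadd45b 3.38 and 2.83 FPKM in Yy1 knockdown and control libraries, with overlap in both. Ankrd1, Fjx1 and Rbms3 were listed at 0 in all 4 libraries.

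Of the trophectoderm genes listed as downstream of TEAD4, 7 of 13 were tested, 6 higher and 1 lower (Tfap2c), with a median of 0.39. For Tfap2c both knockdown libraries were below both controls, which makes 1 of the 7 (14.3%, against 18.9% of all tested genes). Whether each listed gene depends on TEAD4 was not tested. In 4 of the 7 (57.1%, against 21.8% of all tested genes) both knockdown libraries were above both controls, namely Gata3, Dab2 and the keratin genes Krt18, at 20.8 and 28.6 FPKM in Yy1 knockdown and 4.52 and 11.7 FPKM in control libraries, and Krt8, at 31.6 and 23.5 FPKM in Yy1 knockdown and 11.1 and 20.7 FPKM in control libraries. Dab2, an endocytic adaptor gene, had means of 7.18 and 5.08 FPKM, and Tfap2c, a transcription factor gene, 38.2 and 49.5 FPKM in Yy1 knockdown and control libraries. Gata3, also a transcription factor gene, had 4.63 and 3.28 FPKM. The limma adjusted p of Krt18, Krt8, Dab2, Tfap2c and Gata3 was 0.500 to 0.632. Cdx2, the defining trophectoderm factor, overlapped between groups at means of 1.89 and 1.15 FPKM.

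Apical polarity and actomyosin genes, many of whose products help keep the Hippo pathway off in outer cells, were evenly divided by sign, with 10 higher and 11 lower among 21 tested and a median of -0.01. In 6 of the 21 (28.6%, against 18.9% of all tested genes) both knockdown libraries were below both controls. In 4 (19.0%, against 21.8% of all tested genes) both were above. Pard6b, a subunit of the apical PAR complex, had 7.05 and 3.70 FPKM in Yy1 knockdown libraries and 8.85 and 8.62 FPKM in control libraries. Prkci, which encodes the kinase of the same complex, had means of 5.42 and 4.13 FPKM, so these partners stood on opposite sides. Llgl1, a basolateral polarity gene, had means of 5.54 and 8.12 FPKM, and Ctnnb1, which encodes beta-catenin, 27.0 and 33.6 FPKM in Yy1 knockdown and control libraries. Among TEAD factors and cofactors 2 of 6 were tested, Tead4 and Vgll4, a repressive TEAD cofactor gene with means of 2.69 and 1.59 FPKM in Yy1 knockdown and control libraries.

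**Figure D5:**
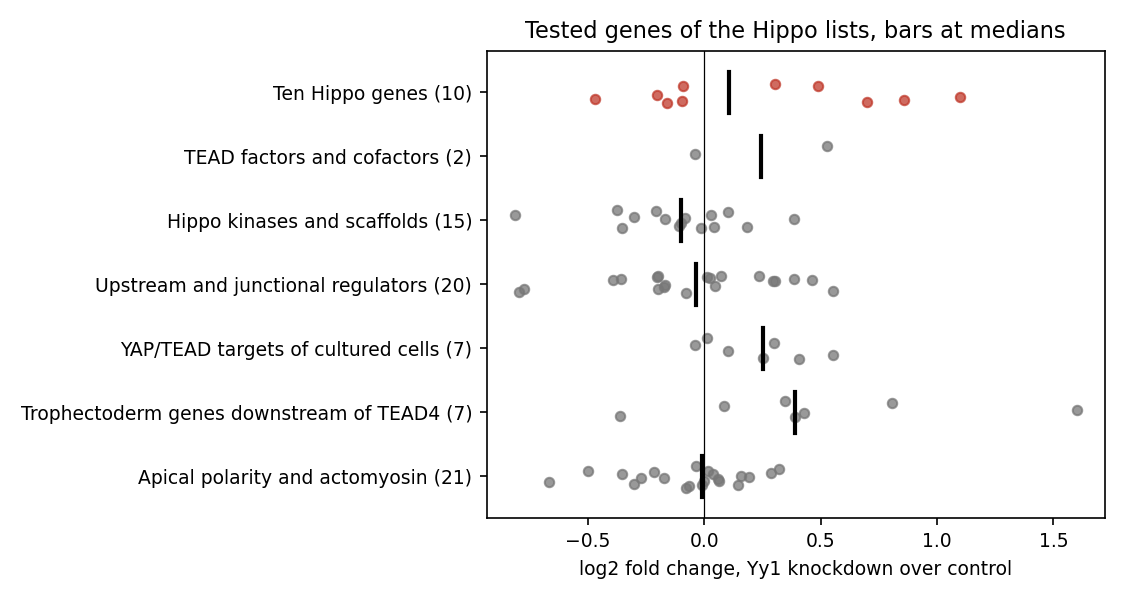
Log2 fold changes of Yy1 knockdown over control for the tested genes of each list, 1 point per gene, with the number tested in brackets and bars at the medians. The medians run from -0.10 for the kinases to 0.39 for the trophectoderm genes, and the points of every list spread on both sides of 0.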

How the data were processed

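RNA of 8-cell embryos was sequenced after Yy1 knockdown (2 libraries) and control knockdown (2 libraries), grouped by sample title. Per the labels' protocols, the SMART-Seq stranded kit was used. The authors deposited FPKM. The mm10 build, HISAT2 2.2.1, featureCounts and R 4.0.3 stand in the submitters' processing notes, which do not assign tools to assays; no source used here gives the annotation, the strand setting or the treatment of multiply mapped reads, so overlapping genes are uncertain. From the steps between FPKM values, whole fragment counts came out within 0.01 for all 12120 tested genes; a count may be understated by a common factor. Replicate libraries were not copies of each other: chi-square divided by degrees of freedom was 50.9 for Yy1 knockdown and 75.9 for control.

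limma 3.58.1 in R 4.3.3 was fitted with group alone and a mean-variance trend to log2(FPKM + 1), over genes averaging 1 FPKM or more; low genes change less on this scale than in FPKM. Median-ratio scaling moved the median log2 fold change of all genes by under 0.1. The fit was tested on simulated data. The genes, lists, tests and alternatives were chosen with earlier results of these data known. Named genes are the 10, Tead4, Yy1, up to 4 per list by smallest p, and 3 most like Cyr61; other genes were named after their values were seen. Sequences and positions are from RefSeq (GRCm38.p6). Counting intervals are exact Poisson intervals at 95%.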

Additional observations from a re-analysis of the deposited data

How the results depend on the processing

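No Hippo gene passed under any of the 12 alternatives run, and no gene of the 6 pathway lists did. The count over all tested genes was 0 in the main analysis. It was 4 of 6677 with a filter of 5 FPKM, 15 of 8565 among protein-coding genes alone and 13 with limma-voom on recovered fragments. What led to the calls in these 3 settings was not tested. The count was 0 with a pseudocount of 0.1, no filter, both scalings, and in each fit without a library. Yy1 passed in those 3 settings (log2 fold change and adjusted p -3.26 and 0.0108, -3.26 and 0.000545, -3.45 and 4.63e-05) and was -3.45 to -3.07 when a library was left out. It did not pass in the other settings. Its limma adjusted p was 0.0528 with a pseudocount of 0.1, 0.0772 by median-ratio scaling and 0.11 by quantile normalization. With the replicate block it was 0.379 and with no filter 0.769. Most settings thus did not call even the targeted gene, which limits what not passing means for the Hippo genes. Cyr61 had an adjusted p of 0.2 to 0.84 over all 12 alternatives. Over fits without a library its log2 fold change stayed between 0.70 and 1.51, that of Amotl2 between 0.49 and 1.23, Amot between 0.32 and 1.08, Wwtr1 between 0.31 and 0.67, Lats2 between 0.21 and 0.40 and Lats1 between -0.64 and -0.30. Tead1 ran from -0.361 to 0.0397 in these fits and Tead2 from -0.436 to 0.0293, so neither has a stable direction. With 1 library in a group, such fits take its spread from the other group. By quantile normalization, an alternative for this count chosen after seeing the data, 1 gene in place of 2 (Lats1 and not Yap1) had both knockdown libraries below both controls, where 20.7% of all tested genes did; Cyr61, Amotl2, Amot, Wwtr1 and Lats2 had them above there too, where 19.7% did. With the replicate block no gene was called (count 0), and Cyr61 had an adjusted p of 0.456. The replicate numbers are not stated to mark a shared collection, and differences between replicates 1 and 2 correlated at 0.0994 between groups. With 115 or more fragments per gene and library, counting intervals of replicates overlapped for some genes, such as Cyr61 in Yy1 knockdown (7.79 to 9.18 and 8.28 to 9.83 FPKM), and depth limits Tead2 and Cyr61 most.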

Other observations

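In both groups some Hippo genes differed between replicates by as much as between groups. Control replicate 1 had 2.06 times the Cyr61, 1.77 times the Amotl2 and 1.31 times the Wwtr1 of control replicate 2, and 0.569 times its Amot and 0.558 times its Tead2. In Yy1 knockdown libraries the corresponding ratios of replicate 1 to replicate 2 were 0.937, 0.746, 1.19, 1.25 and 1.38. Lats1 differed by a ratio of 1.37 between Yy1 knockdown replicates and 1.01 between controls.

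Several regulators were near 0 in these embryos. The atypical cadherin genes Fat4, Dchs1 and Dchs2, upstream inputs of the pathway in other tissues, averaged 0.0635, 0.00131 and 0.00476 FPKM over the 4 libraries, while Fat1 averaged 5.66 FPKM. The cofactor genes Vgll1, Vgll2 and Vgll3 averaged 0.00348, 0.0694 and 0.109 FPKM. The phosphatase gene Ptpn14, an inhibitor of YAP, averaged 0.0826 FPKM.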
